A study of Mus musculus with 4 samples.

Results

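The Fc receptors for IgG were followed through the thyroids of mice given an antibody against PD-L1. They comprised 6 genes chosen by symbol from a deposited table of 16218 genes. Fcgr1, Fcgr3 and Fcgr4 encode the activating receptors of the mouse, Fcer1g their shared signalling chain, Fcgr2b the inhibitory receptor and Fcgrt the receptor that recycles IgG. All 6 were in the table, and all 6 were among the 16217 genes kept for testing. The animals were NOD.H-2h4 mice, a strain that is prone to autoimmune thyroiditis, in both groups. One group received an IgG isotype control antibody and the other a monoclonal antibody to PD-L1, each injected 3 times a week over 2 weeks before the thyroid was taken. Each group had 2 libraries, named here IgG replicates 1 and 2 and anti-PD-L1 replicates 1 and 2. The labels give no age or sex, no induced mutation and no iodide supplement, and no group of untreated mice is analysed here, so both groups had received injected IgG, the ligand of the receptors described. The batch field of the labels holds a different entry for each library (LTF2, LTF3, 10F.9G2 and 10F.9G3), so batch and group cannot be told apart. The entries resemble antibody clone names that differ in their last digit, and whether they name separate clones is not known. The titles name a mouse for each library without saying whether mice were pooled or littermates, and p-values measure only the spread between these samples.

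As background, the Fcγ receptors bind the constant part of IgG and let macrophages, monocytes, neutrophils, natural killer cells and dendritic cells react to antibody-coated targets and immune complexes. The activating receptors depend on the common γ chain, whose ITAM motif recruits the kinase Syk, whereas the inhibitory receptor carries an ITIM motif that recruits the lipid phosphatase SHIP1, the product of Inpp5d. FcRn, the product of Fcgrt, pairs with β2-microglobulin and returns IgG from endosomes to the cell surface, which prolongs the life of IgG in the circulation. Interferon γ is a classic inducer of Fcgr1.

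The promoters of Fcgr1 and Fcgr4 are shown because these genes had the smallest p and the largest fold change of the family. The sequences are the 250 bases before the start site in the RefSeq promoter table on GRCm38.p6, written 5′ to 3′ on the gene's strand. Capitals mark matches, on either strand, to TTCNNNGAA (the interferon γ activated site), GAAANNGAA (an interferon response element core) or GAGGAA (a PU.1 core). The Fcgr1 window is chr3:96293970-96294219 on the minus strand. The Fcgr4 window is chr1:171018676-171018925 on the plus strand, and its last 6 bases lie inside the first exon in GENCODE.
Fcgr1: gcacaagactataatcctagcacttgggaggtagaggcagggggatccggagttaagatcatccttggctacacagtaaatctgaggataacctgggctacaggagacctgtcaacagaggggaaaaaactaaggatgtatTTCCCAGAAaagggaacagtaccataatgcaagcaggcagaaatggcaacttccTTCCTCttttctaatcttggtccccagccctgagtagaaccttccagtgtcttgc
Fcgr4: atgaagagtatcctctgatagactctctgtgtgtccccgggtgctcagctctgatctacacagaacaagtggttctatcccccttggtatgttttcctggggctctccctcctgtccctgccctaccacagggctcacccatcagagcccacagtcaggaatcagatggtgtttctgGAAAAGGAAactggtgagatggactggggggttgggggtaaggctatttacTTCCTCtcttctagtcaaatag
The Fcgr1 window held the interferon γ activated site letters TTCCCAGAA from 109 to 101 bases before the start and the PU.1 core from 55 to 50. The Fcgr4 window held the interferon response core letters GAAAAGGAA from 73 to 65 bases before the start and the PU.1 core from 22 to 17. All 6 members matched the promoter table. Fcgr3 is listed with 2 starts, and its window held the PU.1 core from 6 to 1 bases before one of them and from 15 to 10 before the other. None of the 3 letter patterns was found in the windows of Fcgr2b, Fcer1g and Fcgrt, and the matches in any window did not overlap each other. Of the 250 bases of the Fcgr2b window, 187 lie inside exons of Fcgr2b in GENCODE. The lack of a match there therefore says little about sequence before the GENCODE start. Of 32851 promoters of this length, 7.02% held TTCNNNGAA, 7.13% held GAAANNGAA and 23.3% held GAGGAA. A match is a description of letters and not of binding.

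The libraries held 75591923 to 79663374.5 counts, so 3 counts corresponded to 0.0377 to 0.0397 CPM, that is counts scaled to library size, and each Fc receptor gene lay above that floor in every library. The thyroid marker thyroglobulin (Tg) took 14.6% to 16.9% of all counts in 3 libraries and 4.34% in anti-PD-L1 replicate 1. That library stood apart in other ways too, with 1.40 CPM of Xist against 67.7 to 72.7. It also had 62.6 CPM of Ddx3y, from the Y chromosome, against 0.350 to 0.790. By these sex-linked genes that library looks male and the others female, although the labels give no sex. Sex was thus not balanced between the groups, and the part of sex in the results was not tested. Tissue next to the thyroid varied by library, the summed level of 9 mucosal gland genes ranging from 4655 to 37772 CPM and that of 9 squamous epithelial genes from 109 to 12973 CPM. Cartilage genes differed by group, 7 of 8 being lower with anti-PD-L1 without overlap (median log2 fold change −2.04, 6 DESeq2 calls) and their sum being 161 and 210 CPM with IgG and 58.8 and 57.6 with anti-PD-L1. The part of these tissues in the results was not tested. Fold changes of the members, ratios, levels relative to macrophage markers and list medians are also given without anti-PD-L1 replicate 1. A fit without a library leaves 1 library in that group, which is then assumed to vary like the other group. The ratios and list medians without this library were added after seeing the data. Cd274, the gene of PD-L1, had 23.1 and 10.0 CPM with IgG and 34.8 and 26.6 CPM with anti-PD-L1, which checks no label because the antibody binds the protein.

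The study asked which thyroid genes differ after PD-L1 blockade. All 4 activating genes were several-fold higher after PD-L1 blockade than after control IgG in every library, the fold changes running from 3.02 for Fcgr3 to 14.2 for Fcgr4. Fcgr2b was 1.95-fold and Fcgrt 1.23-fold higher on average, each with an interval that included no change. For all 6 genes the groups did not overlap and the anti-PD-L1 libraries were higher, which held for 16.5% of all tested genes, while 13.1% had both anti-PD-L1 libraries lower. The edgeR quasi-likelihood test with Benjamini-Hochberg adjustment over all genes called 0 of the 6, as it called 0% of the table. At an unadjusted p under 0.05 edgeR marked 4 of the 6 as higher, against 4.96% of all genes, and these 4 were the activating genes. DESeq2 called the same 4 higher at an adjusted p under 0.05, against 2.93% of all genes, and limma voom called 0 genes in all. The median log2 fold change was 1.96 over the 6 genes and 0.00021 over all tested genes. Most markers of macrophages, T cells and natural killer cells were higher in the same libraries, with values given further on. In RNA from whole tissue, more cells of a type and more RNA per cell cannot be told apart.

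**Figure D1:**
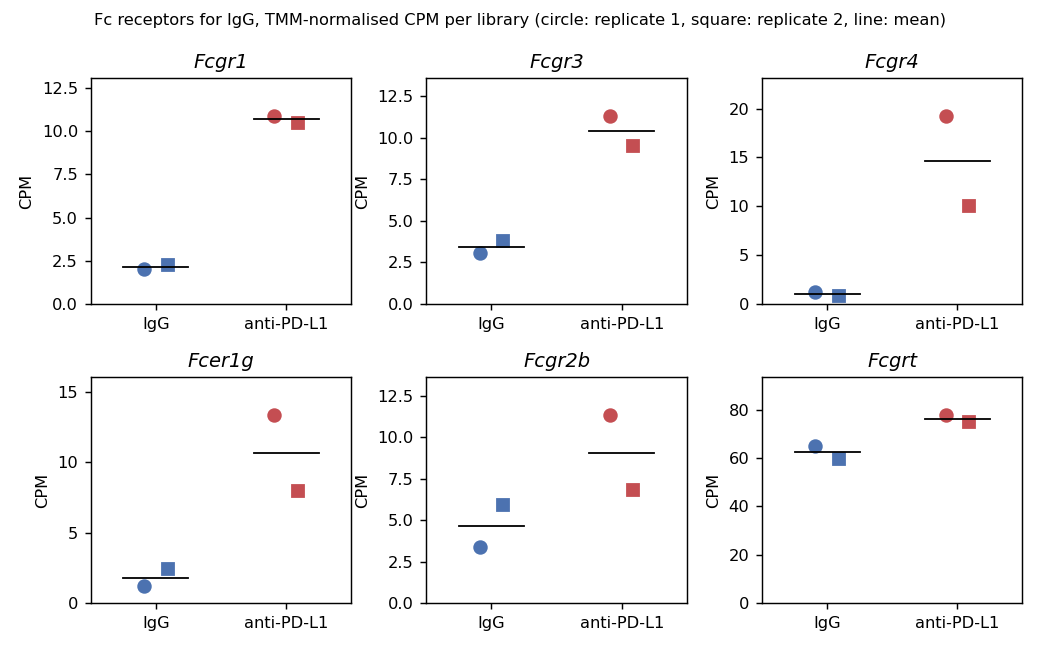
TMM-normalised CPM (vertical axes, linear and starting at 0, a separate scale for each gene) of the 6 Fc receptor genes in the IgG (blue) and anti-PD-L1 (red) libraries, with circles for replicate 1, squares for replicate 2 and a line at the mean. Fcgr1 sits at 2.04 and 2.25 CPM with IgG and at 10.9 and 10.5 with anti-PD-L1, whereas Fcgr2b and Fcgrt have groups that nearly touch.

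Fcgr1 encodes the high-affinity receptor for IgG, found on monocytes, macrophages and some dendritic cells, and spans chromosome 3, 96282909 to 96293969 (GRCm38). Its level was 2.04 and 2.25 CPM after control IgG and 10.9 and 10.5 CPM after PD-L1 blockade. The libraries of each group nearly coincided, and both anti-PD-L1 values were at least 4.67 times both IgG values. The log2 fold change was 2.32 ± 0.21 (SE, n = 2 per group, 95% interval 1.76 to 2.87), with an edgeR adjusted p of 0.160 and a DESeq2 adjusted p of 3.73e-16. Fcgr1 ranked 21 among 16217 genes by edgeR p, the highest place in the family.

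Fcgr3 encodes a low-affinity activating receptor of myeloid and natural killer cells, on chromosome 1 from 171051174 to 171064935. Its level was 3.09 and 3.79 CPM with IgG and 11.3 and 9.50 CPM with anti-PD-L1. Both anti-PD-L1 libraries were high, at 2.50 times the higher IgG library or more. The difference of 1.60 ± 0.23 on the log2 scale (SE, n = 2 per group, 95% interval 0.97 to 2.22) was the smallest among the activating genes, with an edgeR adjusted p of 0.200 and a DESeq2 adjusted p of 6.70e-06. In a fit without IgG replicate 1, DESeq2 no longer called Fcgr3 (log2 fold change 1.45, adjusted p = 0.196).

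Fcgr4 encodes an activating receptor of monocytes, macrophages and neutrophils that binds the IgG2 subclasses of the mouse, and lies on chromosome 1 from 171018920 to 171029761. Its level was 1.25 and 0.801 CPM after control IgG and 19.2 and 10.05 CPM after PD-L1 blockade. The anti-PD-L1 libraries differed from each other by 1.92-fold, yet the lower one still had 8.03 times the level of the higher IgG library. The log2 fold change was 3.83 ± 0.47 (SE, n = 2 per group, 95% interval 2.56 to 5.10), with an edgeR adjusted p of 0.172 and a DESeq2 adjusted p of 6.58e-13. This was the largest fold change of the 6 genes, and 3.29 without anti-PD-L1 replicate 1.

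Fcer1g encodes the common γ chain, which the activating receptors need for signalling and surface expression, and lies on chromosome 1 from 171229572 to 171234365. Its level was 1.20 and 2.40 CPM with IgG and 13.4 and 7.95 CPM with anti-PD-L1. Replicates spread more than for Fcgr1, by 2.00-fold with IgG and by 1.68-fold with anti-PD-L1, and the gap between the groups was 3.31-fold. The log2 fold change was 2.56 ± 0.48 (SE, n = 2 per group, 95% interval 1.26 to 3.87), with an edgeR adjusted p of 0.278 and a DESeq2 adjusted p of 4.30e-05. Without anti-PD-L1 replicate 1 the DESeq2 log2 fold changes were 2.29 for Fcgr1, 1.46 for Fcgr3, 3.29 for Fcgr4 and 2.14 for Fcer1g, with adjusted p from 3.28e-06 for Fcgr4 to 0.0388 for Fcer1g.

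Fcgr2b encodes the single inhibitory receptor of the family, carried by B cells, by many myeloid cells and by some endothelium, and lies on chromosome 1 from 170958617 to 170976547. Its level was 3.39 and 5.94 CPM with IgG and 11.4 and 6.80 CPM with anti-PD-L1. The lower anti-PD-L1 library exceeded the higher IgG library by only 1.146-fold, less than the 1.75-fold and 1.67-fold spread within the groups. The difference of 0.96 ± 0.42 on the log2 scale (SE, n = 2 per group, 95% interval −0.16 to 2.08) did not pass, with an edgeR adjusted p of 0.955 and a DESeq2 adjusted p of 0.623, and it was 0.54 without anti-PD-L1 replicate 1. The library with more Fcgr2b in each group was also the library with the higher summed level of 11 B cell genes. That sum was 48.8 and 143 CPM after control IgG and 170 and 87.3 CPM after PD-L1 blockade, and its part in the Fcgr2b values was not tested.

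Counts of Fcgr2b and Fcgr3 may be less certain than those of the other members, because these neighbours share sequence, but this was not tested. Their longest coding transcripts have 1 identical stretch of 129 bases, all of it coding and split over 2 exons. It is shown because a read that lies inside it cannot be assigned by its letters, and it runs over chr1:171054167-171057792 in Fcgr3 and chr1:170966674-170968081 in Fcgr2b, both on the minus strand.
Fcgr2b and Fcgr3: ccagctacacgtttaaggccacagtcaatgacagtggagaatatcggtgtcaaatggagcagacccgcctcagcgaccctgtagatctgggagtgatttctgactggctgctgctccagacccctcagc
Of all 50-base windows in the Fcgr3 transcript, 12.8% also occurred in an Fcgr2b transcript, and 4.75% of those in the Fcgr2b transcript occurred in Fcgr3. No window of 150 bases, the length of 1 read, was shared, and no other pair of members shared a window of 50 bases. Exons of Fcgr2b also overlap the antisense gene Gm38204 by 155 bases, and since the strand setting of the counting is not given in the sources used here, reads of these genes cannot be told apart. Fcgr2b had counts ending in 0.5 in both groups (451.5 in IgG replicate 2 and 834.5 in anti-PD-L1 replicate 1), and all counts of the other members were whole.

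Fcgrt encodes the heavy chain of FcRn, on chromosome 7 from 45092990 to 45103851, and is expressed in epithelium, endothelium and macrophages. Its level was 65.1 and 59.6 CPM with IgG and 77.9 and 75.0 CPM with anti-PD-L1. Both anti-PD-L1 libraries were higher, but by little. The log2 fold change was 0.29 ± 0.15 (SE, n = 2 per group, 95% interval −0.10 to 0.69), with an adjusted p of 1 in both edgeR and DESeq2. That interval leaves out a rise of the size seen for any activating gene, whose estimates began at 1.60. B2m, which encodes the light chain that FcRn shares with class I MHC molecules, had 346 and 388 CPM with IgG and 1572 and 1526 CPM with anti-PD-L1. Its log2 fold change was 2.08 ± 0.30 (edgeR adjusted p = 0.200, DESeq2 adjusted p = 2.15e-23), so the 2 chains of FcRn had unequal changes in these libraries. Without anti-PD-L1 replicate 1 the value for B2m was 2.06.

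**Figure D2:**
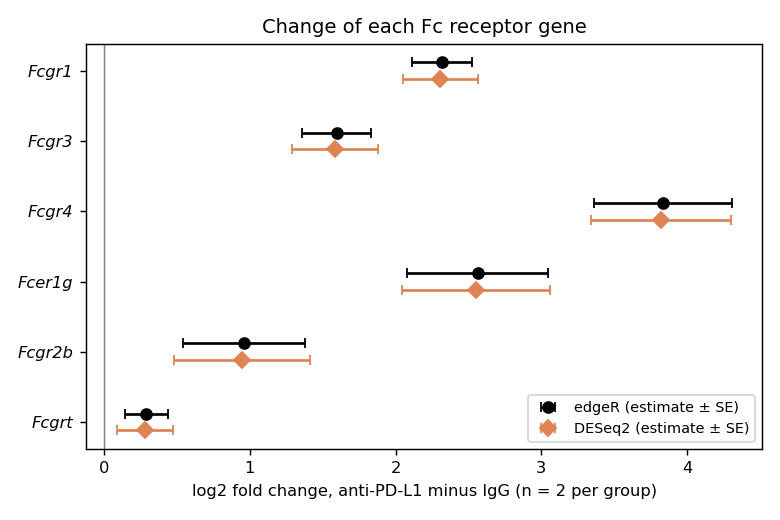
Log2 fold change, anti-PD-L1 minus IgG (horizontal axis), of each Fc receptor gene from edgeR (black circles) and DESeq2 (orange diamonds), with bars of 1 SE on n = 2 libraries per group. Both tools place the genes in the same order, from Fcgr4 (3.83 in edgeR) down to Fcgrt (0.29).

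Levels were compared between genes only after division by transcript length, as CPM per kilobase of exon. In both groups Fcgrt was far above the rest, with 31.0 and 28.4 CPM per kilobase after control IgG and 37.1 and 35.7 after PD-L1 blockade. Among the other genes in the IgG libraries, Fcer1g (1.37 and 2.75) and Fcgr3 (1.78 and 2.19) came next and overlapped each other. Below them Fcgr4 (0.996 and 0.638), Fcgr1 (0.787 and 0.867) and Fcgr2b (0.585 and 1.03) could not be ordered beyond their spread. In the anti-PD-L1 libraries the order had more steps. Fcer1g (15.3 and 9.09 CPM per kilobase) and Fcgr4 (15.3 and 7.999) overlapped at the top, above Fcgr3 (6.52 and 5.47), Fcgr1 (4.21 and 4.05) and Fcgr2b (1.96 and 1.17), which were separate from each other. The Fcgr2b level depends on the length used, since all its annotated exons span 5.79 kilobases and its longest coding transcript 3.544. With the latter, Fcgr2b had 0.956 and 1.67 CPM per kilobase with IgG and 3.20 and 1.92 with anti-PD-L1, still the lowest of the 6 in each anti-PD-L1 library.

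The make-up of the receptor pool differed between the groups. Fcgr4 took 24.0% and 13.5% of the summed per-kilobase level of the 4 ligand-binding chains Fcgr1, Fcgr2b, Fcgr3 and Fcgr4 after control IgG, and 54.7% and 42.8% after PD-L1 blockade. Fcgr3, the most abundant of the 4 with IgG at 42.9% and 46.4%, took 23.3% and 29.3% with anti-PD-L1. Fcgr2b took 14.1% and 21.7% with IgG and 6.999% and 6.28% with anti-PD-L1. The share of Fcgr1 overlapped between the groups, at 19.0% and 18.4% against 15.0% and 21.7%. Within each library these shares do not depend on library scaling, but they are parts of 1 whole and cannot move independently. The summed level of the 4 chains was 4.15 and 4.72 CPM per kilobase with IgG and 28.0 and 18.7 with anti-PD-L1.

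The balance of activating and inhibitory receptors is known to tune immune complex responses. Here only RNA of whole tissue was compared, and no such response was measured. The ratio of activating to inhibitory chains was the summed level of Fcgr1, Fcgr3 and Fcgr4 over that of Fcgr2b. It was 6.086 and 3.601 after control IgG and 13.3 and 14.9 after PD-L1 blockade. Both anti-PD-L1 ratios were above both IgG ratios, and the IgG ratios were the more scattered. The group means differed by 1.59 on the log2 scale, a 3.01-fold difference, with an SD of 0.54 among IgG and 0.12 among anti-PD-L1 libraries (n = 2 each). An exact two-sided permutation test of 2 against 2 libraries gave p = 0.33, the smallest it can give, for this ratio. It was 1 of 8 ratios set side by side, none of which can pass at this group size. Without anti-PD-L1 replicate 1 the difference was 1.67, and with coding transcript length the ratios were 4.26 and 2.58 against 8.72 and 9.96.

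Taken one by one against Fcgr2b, the log2 difference was 2.83 for Fcgr4, 1.35 for Fcgr1 and 0.63 for Fcgr3, with groups that did not overlap in any of these. The ratio of Fcer1g to Fcgr2b was 2.35 and 2.68 with IgG and 7.80 and 7.74 with anti-PD-L1, so libraries of a group lay closer here than for any other ratio. The γ chain kept no fixed place relative to the 3 activating receptors it serves, at 0.386 and 0.745 of their summed level with IgG and 0.587 and 0.519 with anti-PD-L1. Those groups overlapped, with a log2 difference of 0.04 (exact permutation p = 1). The Fcgr4 to Fcgr3 ratio was below 1 in both IgG libraries (0.560 and 0.292) and above 1 in both anti-PD-L1 libraries (2.35 and 1.46). Fcgrt relative to Fcgr2b overlapped between the groups, at 52.9 and 27.7 against 18.9 and 30.4. Without anti-PD-L1 replicate 1 the log2 difference was 2.73 for Fcgr4, 1.69 for Fcgr1, 0.87 for Fcgr3 and 1.63 for Fcer1g, each against Fcgr2b, and 1.85 for Fcgr4 against Fcgr3. That of Fcer1g against the activating receptors turned to −0.05.

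**Figure D3:**
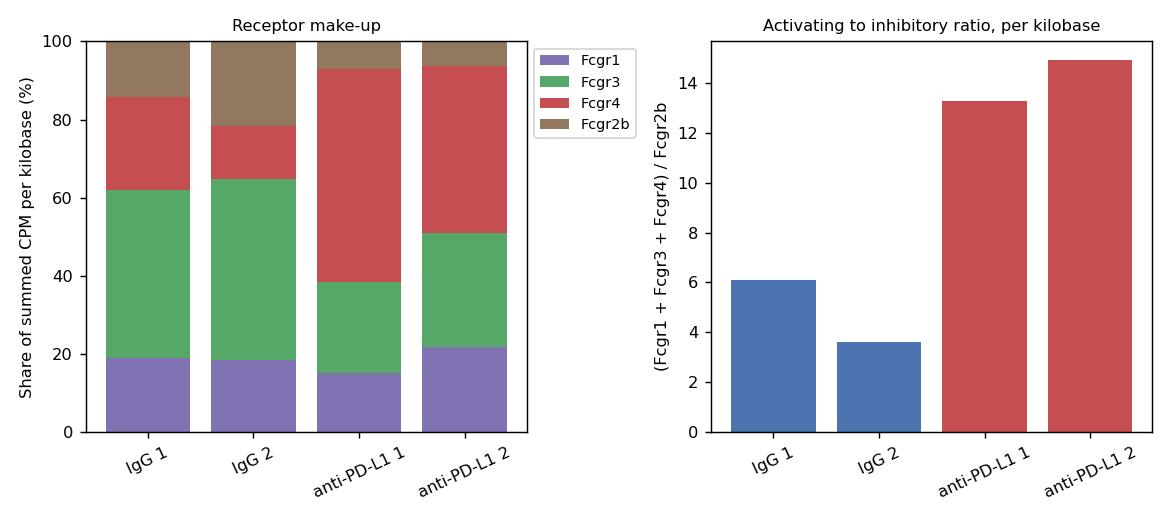
Left, share (%, vertical axis) of each ligand-binding Fcγ receptor gene in the summed CPM per kilobase of Fcgr1, Fcgr3, Fcgr4 and Fcgr2b in each library. Right, ratio of summed activating chains to Fcgr2b on the same scale, 1 bar per library, at 6.086 and 3.601 with IgG (blue) and at 13.3 and 14.9 with anti-PD-L1 (red).

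Because macrophages carry most of these receptors, each gene was set against 18 macrophage genes, all of them detected in every library. Their mean log2 CPM was 3.53 and 3.93 with IgG and 4.85 and 4.94 with anti-PD-L1, a difference of 1.16, and 12 of the 18 were higher without overlap and 0 lower. Among the 6 that overlapped, the log2 fold change was negative for Cd14 (−0.67), Mertk (−0.28) and Vsig4 (−0.11) and positive for Lyz2, Marco and Cd163. Adgre1, which encodes the macrophage marker F4/80, had 9.78 and 12.7 CPM against 39.2 and 53.4, and Csf1r, the receptor for macrophage growth factor, had 29.7 and 36.9 CPM against 63.5 and 87.8. The summed level without Lyz2, which ranged from 879 to 11721 CPM, was 374 and 410 CPM against 1072 and 957. Relative to the mean of the list, Fcgr4 was still higher with anti-PD-L1 by 2.60 on the log2 scale, Fcer1g by 1.42, Fcgr1 by 1.14 and Fcgr3 by 0.43, with no overlap of the groups. Fcgr2b overlapped (difference −0.20) and Fcgrt was lower without overlap (difference −0.87). Without anti-PD-L1 replicate 1 the differences were 2.08 for Fcgr4, 0.998 for Fcer1g, 1.07 for Fcgr1, 0.26 for Fcgr3, −0.61 for Fcgr2b and −0.94 for Fcgrt, and that of Fcgr3 was 0.60 without anti-PD-L1 replicate 2. With Adgre1 alone as the reference the difference was 1.73 for Fcgr4, 0.55 for Fcer1g and 0.27 for Fcgr1, while that of Fcgr3 turned to −0.44 and that of Fcgr2b was −1.07. How far the Fc receptor values follow the macrophage markers was not tested.

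**Figure D4:**
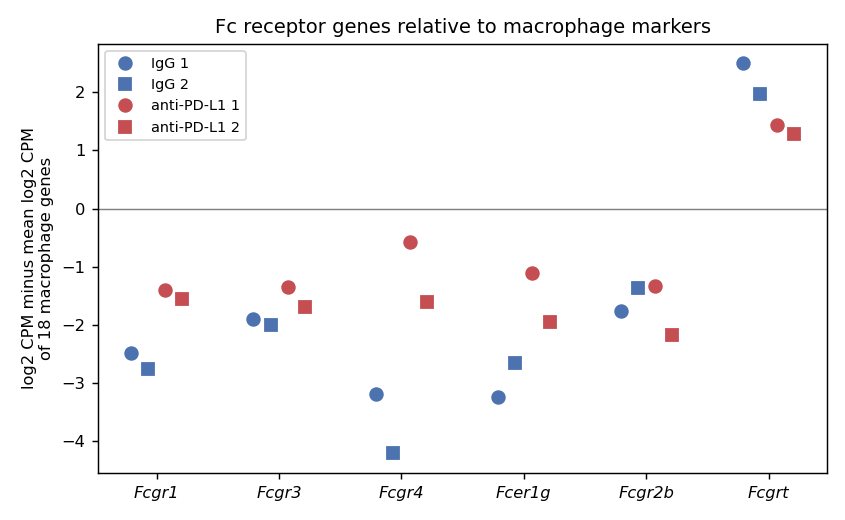
Log2 CPM of each Fc receptor gene minus the mean log2 CPM of 18 macrophage genes in the same library (vertical axis), with blue for IgG, red for anti-PD-L1, circles for replicate 1 and squares for replicate 2. Fcgr4 shows the widest gap between the groups, Fcgr2b overlaps, and Fcgrt is lower in both anti-PD-L1 libraries.

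Genes of ITAM signalling, a list that includes the ITAM chains of other receptors (Tyrobp and Cd247), were mostly higher with anti-PD-L1. Of 20 ITAM signalling genes, 15 were higher and 1 (Vav3) lower without overlap. Their median log2 fold change was 1.00, and DESeq2 called 7, all higher. Beside this and the other lists, 16.5% of all tested genes were higher and 13.1% lower without overlap, and DESeq2 called 2.93% higher. Lcp2, the adaptor SLP-76, had 3.40 and 4.60 CPM against 13.0 and 15.1 (log2 fold change 1.81). Syk itself, the kinase that docks on the γ chain, had 11.6 and 25.8 CPM against 44.7 and 37.7, a log2 fold change of 1.14 that neither tool called (edgeR adjusted p = 0.817, DESeq2 adjusted p = 0.275).

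Most genes of the inhibitory arm were higher as well. Of 15 ITIM and inhibitory signalling genes, 12 were higher and 0 lower without overlap, with a median of 1.29 and 8 DESeq2 calls. Clec12a, an ITIM receptor of myeloid cells, had 1.33 and 1.25 CPM with IgG and 16.2 and 12.8 with anti-PD-L1 (log2 fold change 3.50, edgeR adjusted p = 0.0833). Sirpa, the receptor for CD47 that restrains phagocytosis, had 20.2 and 28.4 CPM against 75.8 and 66.9 (log2 fold change 1.55). Inpp5d, the gene of the lipid phosphatase that the Fcgr2b ITIM recruits, had 6.17 and 13.7 CPM against 27.7 and 34.7 (log2 fold change 1.65, DESeq2 adjusted p = 0.0166). Ptpn6, the phosphatase SHP-1, had 16.1 and 28.8 CPM against 54.2 and 55.9 (log2 fold change 1.29, DESeq2 adjusted p = 0.0218).

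Among 20 genes of the phagocytosis machinery, 14 were higher and 0 lower without overlap, with a median of 0.53 and 4 DESeq2 calls. Dock2, an activator of Rac in leukocytes, had 13.9 and 20.997 CPM against 36.7 and 46.2, and Ncf1, a subunit of the phagocyte oxidase, had 4.64 and 10.9 CPM against 31.8 and 29.9. The broadly expressed lysosomal genes Lamp1 (620 and 584 against 633 and 651 CPM) and Rab7 (250 and 236 against 254 and 246 CPM), chosen after their values were seen, differed little. Of 7 other receptors that use the γ chain, 4 were in the table, with a median log2 fold change of 0.34. Of these, 2 were higher and 1, Gp6, was lower without overlap (log2 fold change −0.12), while Clec4e overlapped (−0.46). Over all tested genes 16.5% were higher and 13.1% lower without overlap, and 4 genes are too few to set against these shares. Ncr1, the natural killer receptor NKp46, had 0.338 and 0.249 CPM against 1.36 and 2.97 (log2 fold change 2.88, DESeq2 adjusted p = 0.000667), and was the only one of the 4 that DESeq2 called. Clec4n, the gene of Dectin-2, had 0.5003 and 2.28 CPM against 2.50 and 2.36.

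Among other Fc receptor genes the picture was mixed. Of 14 listed, 11 were in the table, 4 of them were higher and 0 lower without overlap, and the median log2 fold change was 0.25. DESeq2 called B2m and Trim21, the gene of a cytosolic antibody receptor that had 8.90 and 8.47 CPM against 15.5 and 18.6 (log2 fold change 0.97, DESeq2 adjusted p = 0.00489). Pigr, the transporter of IgA and IgM across epithelium, varied by library, with 81.1 and 658 CPM against 455 and 179. Fcer1a and Ms4a2, the remaining chains of the mast cell IgE receptor, and Fcrl6 were not analysed here.

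Interferon γ response genes were set beside the family because Fcgr1 belongs to that response in macrophages. Of 16 such genes 14 were higher and 1 lower without overlap, with a median of 2.43 and 13 DESeq2 calls. The fold change of Fcgr1 (log2 2.32) lay close to that median, Fcgr4 above it and Fcgr3 below it. Of 8 myeloid transcription factors 4 were higher and 0 lower without overlap, with a median of 0.34. Spi1, which encodes PU.1, had 5.87 and 13.8 CPM against 40.3 and 39.7 (log2 fold change 2.02, DESeq2 adjusted p = 0.00122). Irf8, its partner in macrophages and dendritic cells, had 28.2 and 50.2 CPM against 113 and 130 (log2 fold change 1.63, DESeq2 adjusted p = 0.000803).

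Markers of other cells that carry Fc receptors moved to different degrees. Natural killer cell genes were higher without overlap in 7 of 7 (median 2.75), monocyte genes in 6 of 9 (1.59), dendritic cell genes in 8 of 10 (1.73), eosinophil genes in 3 of 4 (1.57) and T cell genes, whose cells mostly lack these receptors, in 12 of 12 (1.93). The leading genes of these lists by p were Prf1, Ly6c2, Clec9a, Ccr3 and Zap70. B cell genes were higher in 1 of 11 (median 0.37) and plasma cell genes in 4 of 7 (0.33). Mast cell genes overlapped in 6 of 6 (median 0.02), and endothelial genes were higher in 0 and lower in 3 of 11 (−0.08). The shares over all tested genes were 16.5% higher and 13.1% lower without overlap. Of the neutrophil markers only 6 of 12 were in the table, with a median of −0.31, and the gene of smallest p, Csf3r, the receptor for granulocyte growth factor, was higher without overlap (2.13 and 3.20 CPM against 6.04 and 5.99, log2 fold change 1.17, DESeq2 adjusted p = 0.0422). S100a8, chosen after its values were seen, had 0.250 and 1.71 CPM with IgG and 0.667 and 0.309 with anti-PD-L1. Without anti-PD-L1 replicate 1 the B cell median was −0.18, the mast cell median −0.36 and the neutrophil median −0.11, while those of natural killer cell (2.98), T cell (1.98), dendritic cell (1.85), monocyte (1.78), macrophage (1.47) and eosinophil genes (1.26) stayed positive. In the same setting the ITAM median was 0.95, the inhibitory one 1.32, the phagocytosis one 0.60, the interferon γ one 2.44 and that of the other Fc receptor genes 0.13. DESeq2 then called 4 ITAM, 6 inhibitory, 4 phagocytosis and 12 interferon γ genes, and 0 eosinophil genes against 2 with all libraries, and Csf3r was no longer called. The squamous median went from −1.36 to −5.63, that of skeletal muscle from 0.03 to −0.98 and that of mucosal glands from 0.53 to −0.24. The thyroid follicular median went from 0.002 to 0.47, that of fat from 0.02 to 0.56 and that of cartilage from −2.04 to −2.01. This setting thus compares IgG with 1 library that also differed in tissue make-up. Which cell types held the Fc receptor RNA was not tested. Whether natural killer cells or T cells held the RNA of the natural killer cell list was not tested either.

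**Figure D5:**
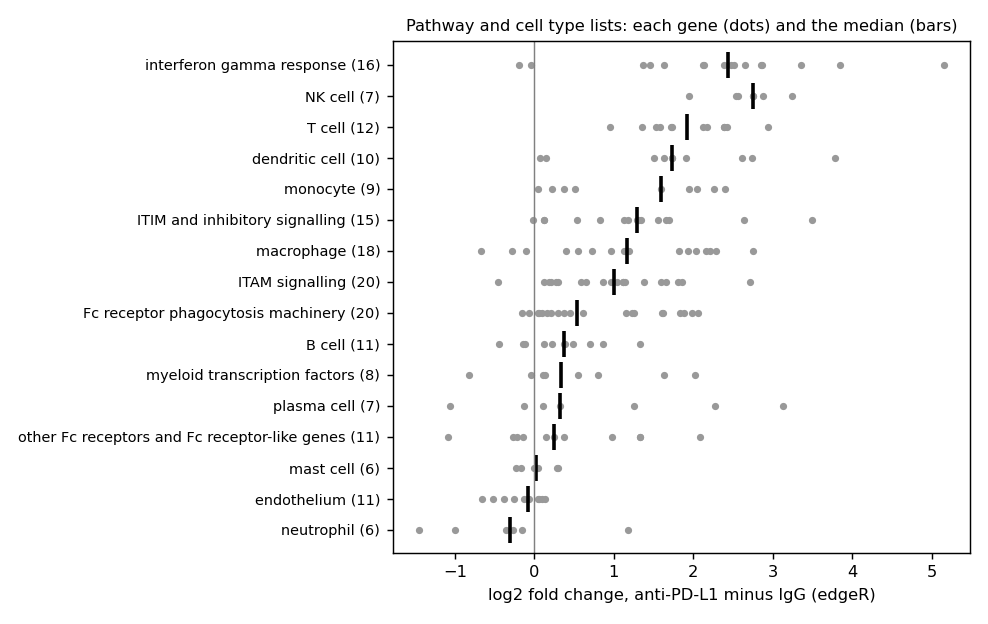
Log2 fold change, anti-PD-L1 minus IgG (horizontal axis, edgeR), of each tested gene (grey dots) in lists of pathways and cell types, with the number of genes in parentheses and a black bar at the median. Among the 16 lists drawn, which leave out thyroid and neighbouring tissues such as cartilage, medians run from 2.75 for natural killer cell genes to −0.31 for neutrophil genes, with ITAM signalling at 1.00 and inhibitory signalling at 1.29.

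Profiles over the 4 libraries were compared by the root-mean-square difference of centred log2 CPM, as a description over 4 points among 16061 genes with a mean of at least 1 CPM. Within the family the nearest pair was Fcgr1 and Fcgr3 (0.37) and the farthest Fcgr4 and Fcgrt (1.77). Fcgr1 was most like H2-K1 (0.061), a class I MHC gene, followed by Amtn, Klrd1, Ifi205 and Irgm1. Fcgr3 was most like Trem2 (0.039), a lipid receptor of macrophages, followed by Trim30d, Klra21, Siglece and Zap70. Fcer1g was most like Lst1 (0.084), then Dbp, Aif1, Cd86 and Ctss, of which Aif1, Cd86 and Ctss are known from antigen-presenting myeloid cells. Fcgr4 had no close match, its nearest being Clec12a (0.32), then Klra2, Gm12250, Igtp and Iigp1. Fcgr2b was most like A530032D15Rik (0.045) and next like Dnase1l3, a DNase of macrophages and dendritic cells, with 19.5 and 31.0 CPM against 65.7 and 39.0, then Pilra and Htra4. Fcgrt was most like Dazap2 (0.012), then Ube2t, Cd63, Rexo2 and Tmem168.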

How the data were processed

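Thyroid RNA was poly(A)-selected and sequenced as paired-end reads of 150 bases, per the labels' protocols. The authors deposited a single table of expected counts by gene symbol without normalization, in which 20.5% of genes had a count ending in 0.5. BWA and mm10 are named in the submitters' processing notes, and the counting program, annotation and strand setting are each not given in the sources used here. Blank cells (13) were read as 0 and the expected counts were rounded.

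Genes kept by filterByExpr were scaled with TMM and tested with edgeR 4.0.16 in R 4.3.3 (robust quasi-likelihood F test on group, two-sided, Benjamini-Hochberg adjustment over 16217 genes, threshold 0.05). The residual degrees of freedom were 2, and the steps were tested on simulated data. Intervals of 95% use each gene's total degrees of freedom. DESeq2 1.42.0 and limma voom (3.58.1), other scalings and filters, the replicate number as a block and each library left out were alternatives. Gene positions and exon lengths came from GENCODE release M21 on GRCm38, the assembly also called mm10, and all 6 symbols matched 1 gene each. Log2 CPM used a prior count of 2.

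Named genes were the 6 members, the genes of smallest p in each list (2 for pathway lists, 1 for cell types), genes set by name, and the 5 genes nearest to each member. Some genes that this rule takes are not reported here. The members and lists were chosen with earlier results of these data known. A planned motif search in the proteins was not run.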

Additional observations from a re-analysis of the deposited data

How the results depend on the processing

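All 6 genes kept a higher value with anti-PD-L1 in each of 13 alternatives (scalings, filters, tools, replicate block, each library left out), with log2 fold changes of 2.23 to 2.39 for Fcgr1, 1.44 to 1.75 for Fcgr3, 3.29 to 4.22 for Fcgr4, 2.13 to 3.15 for Fcer1g, 0.54 to 1.42 for Fcgr2b and 0.23 to 0.34 for Fcgrt. The number of genes called was 0 in edgeR under every other scaling, filter and left-out library and in limma voom, 15 at an adjusted p under 0.10 and 528 in DESeq2, which took Fcgr1 (2.31), Fcgr3 (1.58), Fcgr4 (3.82) and Fcer1g (2.55) past the threshold. The cause was not tested. DESeq2, with alternatives added after seeing the data, called 3 to 4 members with a library left out and 4 with the block. The labels do not say whether libraries with the same replicate number form a pair. Deviations of same-numbered libraries correlated at 0.0998. With 2 libraries per group the crossed value is −0.0998 by construction, so this correlation cannot decide the pairing. With the replicate block edgeR called 0 genes and gave Fcgr1 2.32 (adjusted p = 0.160) and Fcgr4 3.797 (adjusted p = 0.138). The activating to inhibitory difference was 2.26 without Fcgr3 (added after seeing the data), and 1.21 to 1.97 with a library left out. With Adgre1 alone as reference the differences were 0.27 for Fcgr1, −0.44 for Fcgr3 (reversed), 1.73 for Fcgr4, 0.55 for Fcer1g, −1.07 for Fcgr2b and −1.74 for Fcgrt, and the cause was not tested. Fcgr2b relative to the list ran from −0.61 to 0.22 with a library left out, the values above 0 being 0.0056 when IgG replicate 2 was dropped and 0.22 when anti-PD-L1 replicate 2 was. Depth did not limit the members, whose smallest count was 61, but 2 libraries per group allow no exact permutation p under 0.33.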
